A study of Mus musculus with 8 samples.

Results

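The genes described here are the 36 aminoacyl-tRNA synthetase genes of a given list, of which 20 encode cytosolic enzymes and 16, with symbols ending in 2, encode mitochondrial enzymes. They were picked from the deposited table by symbol alone, with or without a final 1, and all 36 were found among its 33212 genes. Every one of them passed the filter on low counts that left 15291 genes to be tested. Their mRNA was measured by RNA-seq of liver from male C57BL/6 mice. All of them had received the MCD diet, deficient in methionine and choline, during 8 weeks. By label the 4 Nnmt LKO mice (Alb-Cre::Nnmt flox/flox) lack Nnmt, which encodes nicotinamide N-methyltransferase. The loss is meant to occur only in the cells in which the albumin promoter drives Cre, namely hepatocytes. The 4 control mice, labelled WT, carried the Nnmt flox/flox alleles without the Cre. The age of the mice is not given in the sources used here, and as both genotypes received the MCD diet, nothing can be said of the diet itself. The comparison asks how loss of Nnmt in hepatocytes altered the liver's transcripts under this diet.

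Apart from the product of Eprs, which serves both glutamate and proline, each synthetase joins 1 kind of amino acid to its tRNAs. The tRNAs then carry it to the ribosome. Cytosol and mitochondria translate separately, so most amino acids have a nuclear gene for each compartment, while Gars and Kars make the enzymes of both from 1 gene. In the cytosol several synthetases are held in a large multisynthetase complex. The transcription factor ATF4, made when eIF2α is phosphorylated in the integrated stress response (ISR), is widely described as raising the transcription of many cytosolic synthetase genes, together with genes of amino acid uptake and synthesis.

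Total counts per library ran from 75020072 to 87934362, and 3 counts stood for at most 0.0418 CPM, that is, counts scaled to the library size. Columns of the table are named by genotype alone, and letters a to d mark their order. CPM values below were scaled by edgeR's TMM factors, which correct for differences in library composition. Library Nnmt LKO a stood apart, with a factor of 1.21 against 0.952 to 0.977 in the other Nnmt LKO libraries. The main counts without it are given beside those that include it. Nnmt itself had 31.8, 44.8, 68.9 and 83.0 CPM in Nnmt LKO libraries a to d, and 112, 224, 134 and 84.9 CPM in control libraries a to d. Every Nnmt LKO library was thus below every control library, although the highest of the former nearly reached the lowest of the latter. By its Nnmt value alone, Nnmt LKO library d could not be told from control library d. In edgeR's quasi-likelihood test Nnmt had a log2 fold change of -1.28 (SE 0.33, unadjusted p = 0.00256, adjusted p = 0.123), where adjusted values follow Benjamini and Hochberg over all tested genes. A two-sided exact permutation test on the CPM values of Nnmt gave p = 0.0286, the smallest that 4 against 4 libraries allow. Which part of Nnmt the Cre removes is not given in the sources used here, and in whole liver, fewer cells of a type and less RNA per cell cannot be told apart.

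The ATF4 element searched for in the promoters comes first, as it is the sequence through which ATF4 is known to act on several synthetase genes. The RefSeq promoter table (GRCm38.p6), whose windows span 250 bases before and 50 bases from each start, held 27 of the 36 genes. Cars, Hars, Hars2, Lars, Nars, Pars2, Rars, Vars and Wars were not among them. The core of the C/EBP-ATF response element, TGATGNAA on either strand, was present in the windows of 1219 of 27025 genes (4.51%). It was present in 5 of 13 cytosolic synthetase genes (38.5%), which were Aars, Gars, Iars, Tars and Yars, and in 0 of 14 mitochondrial ones. A match of each of the 5 genes is shown with 11 bases on each side, 5′ to 3′ along the gene, with the element in capitals.
Yars, chr4:129189895-129189924 (+), match from position 4: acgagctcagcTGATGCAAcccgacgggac
Iars, chr13:49682126-49682155 (+), match from position 8: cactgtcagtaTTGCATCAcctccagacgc
Tars, chr15:11399655-11399684 (-), match from position -15: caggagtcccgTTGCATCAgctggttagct
Aars, chr8:111033840-111033869 (+), match from position 10: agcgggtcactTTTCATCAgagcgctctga
Gars, chr6:55037960-55037989 (+), match from position -30: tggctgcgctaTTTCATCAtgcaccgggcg
Positions count from 1 at the RefSeq start. A second match of Aars, from position -112, is not shown. In Yars the element reads along the gene, and in the others it lies on the opposite strand. A match describes the letters only, and binding of ATF4 was not measured here.

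Nearly all synthetase transcripts had a lower mean in Nnmt LKO livers than in control livers, by small amounts. The fitted log2 fold change was negative for 35 of the 36 genes, while 47.7% of all tested genes were negative. Its median over the 36 was -0.15, against 0.02 over all tested genes. At an unadjusted p under 0.05 by edgeR's test, 8 of the 36 (22.2%) were lower, namely the cytosolic Cars, Kars, Sars and Yars and the mitochondrial Aars2, Ears2, Nars2 and Tars2. The background for that count was 7.13% of all tested genes lower. With library totals alone 4 were lower, beside 4.05% of all tested genes, and without control a 5 were, beside 3.97%. None of the 36 was higher at this threshold, where the background was 5.45%. After adjustment over all genes only Ears2 passed, at an adjusted p of 0.0496, where 0.32% of all tested genes passed in either direction and 0.137% as lower. In 8 of the 36 genes every Nnmt LKO library was below every control library, which held for 4.81% of all tested genes. The 8 were Aars, Cars, Sars, Tars, Yars, Aars2, Ears2 and Nars2. The reverse, every Nnmt LKO library above every control library, was found in none of the 36 and in 3.34% of all genes. Without library Nnmt LKO a, 33 of the 36 fold changes were negative, 6 genes were lower at the unadjusted threshold (3 of each class, without Kars and Tars2), beside 7.42% of all tested genes. Libraries were then separate in 9 of the 36 (the 8 above and Gars), beside 7.43% of all tested genes. Ears2 then had an adjusted p of 0.0454, but 149 of 15477 tested genes passed that threshold in place of 49. The cytosolic median was then -0.16 and the mitochondrial median -0.09. The plot of fold changes shows these values for each gene.

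**Figure D1:**
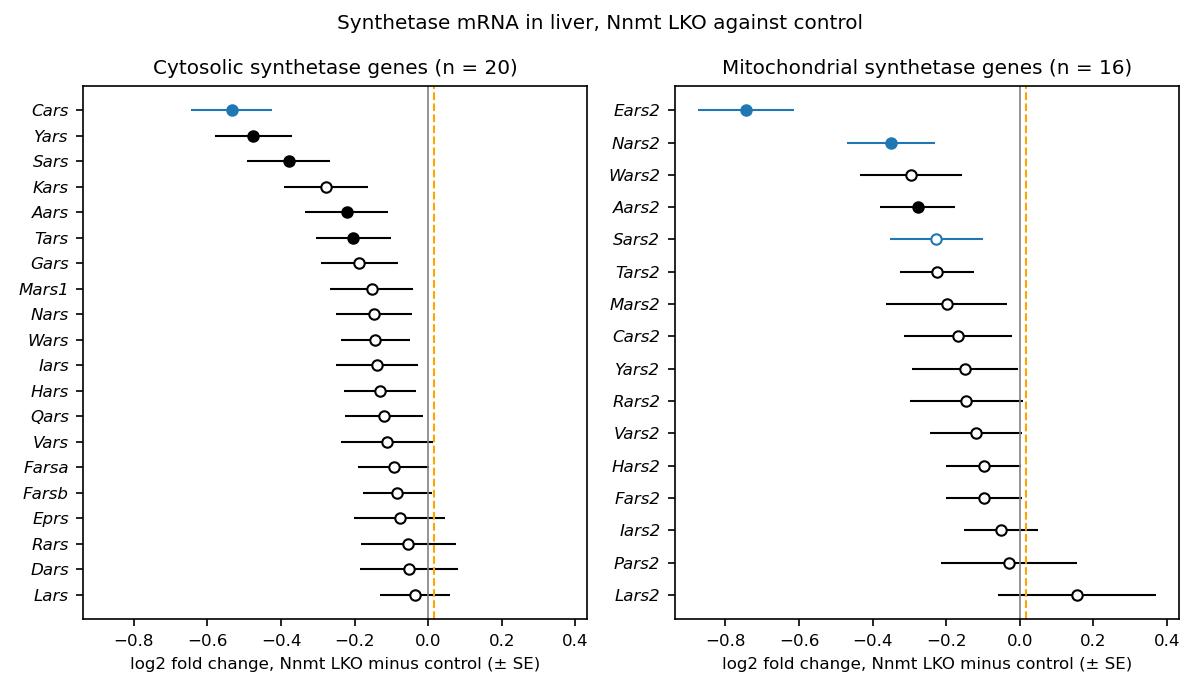
log2 fold change in Nnmt LKO against control livers (x axis, points) with its standard error (bars) for each cytosolic (left) and mitochondrial (right) synthetase gene, 4 libraries per genotype. Filled points are genes whose libraries did not overlap between genotypes, blue marks genes on chromosome 7, the grey line is 0 and the dashed line is the median of all tested genes (0.02). All points but Lars2 lie below 0, and Ears2, Cars and Yars lie furthest from it.

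Summed over the 20 cytosolic genes, the libraries of the genotypes were separate on the TMM scale. The sums were 1527, 1534, 1596 and 1538 CPM in Nnmt LKO libraries a to d and 1886, 1720, 1773 and 1728 CPM in control libraries a to d, with means of 1549 ± 31.8 and 1777 ± 76.5 CPM (SD, n = 4 each). The lowest control library thus had 1720 CPM and the highest Nnmt LKO library 1596 CPM. The separation depended on the scaling. With library totals alone, the cytosolic sum was 1846 CPM in Nnmt LKO a and 1470 to 1520 CPM in the other 3, against 1508 to 1856 CPM in control libraries, so the genotypes overlapped. The same scaling left 33 of the 36 fold changes negative, with a median of -0.09 beside 0.07 for all tested genes. Libraries were then separate in 4 of the 36 genes (Cars, Yars, Ears2 and Nars2), all of them lower, and lower in this way in 3.03% of all tested genes. With DESeq2's size factors the cytosolic sums were 1532 to 1597 CPM and 1723 to 1895 CPM and did not overlap.

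The sums over the 16 mitochondrial genes overlapped between genotypes. They were 293.9, 378.9, 358.5 and 366.2 CPM in Nnmt LKO libraries a to d and 400.3, 386.9, 334.9 and 374.0 CPM in control libraries a to d. Lars2 alone supplied 59.8 to 113.9 CPM of these sums and varied most between libraries. With Lars2 left out, a choice made after its values were seen, the sums were 234 to 265 CPM in Nnmt LKO and 272 to 303 CPM in control libraries, which did not overlap. With library totals alone these sums overlapped, at 283, 259, 244 and 244 CPM in Nnmt LKO libraries a to d and 288, 245, 285 and 314 CPM in control libraries a to d.

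**Figure D2:**
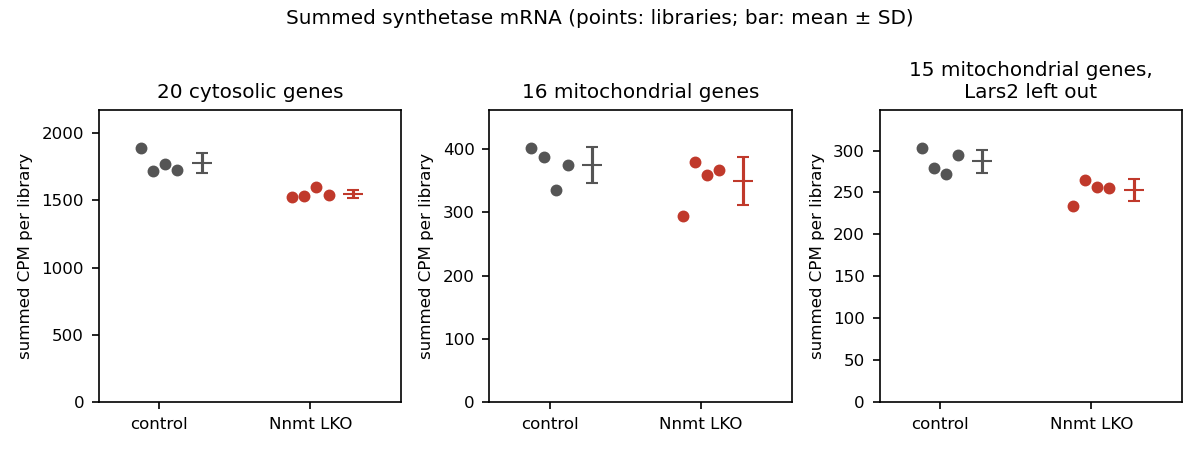
Summed CPM per library (y axis, TMM-scaled, from 0) of the cytosolic genes, the mitochondrial genes and the mitochondrial genes without Lars2, with control libraries in grey and Nnmt LKO libraries in red. Points are libraries a to d from left to right and the bar is the mean ± SD of 4. The cytosolic sums of Nnmt LKO livers (1527 to 1596 CPM) lie below all control sums (1720 to 1886 CPM), while the mitochondrial sums overlap until Lars2 is left out.

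Among the cytosolic genes all 20 fold changes were negative, from -0.53 in Cars to -0.04 in Lars, with a median of -0.14. Cars, the cysteinyl-tRNA synthetase gene, differed most. It had 23.1, 23.2, 28.4 and 23.6 CPM in Nnmt LKO libraries a to d and 35.6, 40.0, 33.8 and 33.1 CPM in control libraries a to d. All 4 Nnmt LKO values lay below the lowest control value, and on average Cars had 69.0% of its control level. The difference was -0.53 on the log2 scale (SE 0.11, unadjusted p = 0.00048, adjusted p = 0.0725 by edgeR's test).

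Yars, the tyrosyl-tRNA synthetase gene, followed closely. It had 38.4, 41.9, 45.7 and 39.2 CPM in Nnmt LKO libraries a to d and 58.6, 62.4, 50.9 and 57.8 CPM in control libraries a to d. No Nnmt LKO library reached the lowest control library, and the mean was 71.9% of that in controls. On the log2 scale Yars differed by -0.48 (SE 0.10, unadjusted p = 0.00076, adjusted p = 0.0865 by edgeR's test). This gene carries the response element shown above just downstream of its start.

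Sars, the seryl-tRNA synthetase gene and one of the most abundant per length, had 157.5, 159.3, 160.2 and 142.0 CPM in Nnmt LKO libraries a to d. In control libraries a to d it had 225, 198, 209 and 173 CPM. The genotypes were separate, with 1 low library, d, in each of them. For Sars edgeR's test gave a log2 fold change of -0.38 (SE 0.11, unadjusted p = 0.0064, adjusted p = 0.187).

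Kars, which encodes the lysyl-tRNA synthetases of both compartments, had 83.95, 91.7, 97.0 and 83.95 CPM in Nnmt LKO libraries a to d. In control libraries a to d it had 124, 112, 101.5 and 94.7 CPM. Nnmt LKO library c exceeded control library d, so the genotypes overlapped. The log2 fold change of Kars was -0.28 (SE 0.11, unadjusted p = 0.0326, adjusted p = 0.338), and the unadjusted p stayed under 0.05 in 3 of the 8 fits that left out 1 library.

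Aars and Tars, for alanine and threonine, did not reach the unadjusted threshold by edgeR's test although their libraries were separate. Aars had 289.9, 297.3, 314.2 and 301.4 CPM in Nnmt LKO libraries a to d and 388.4, 323.7, 320.7 and 369.2 CPM in control libraries a to d. The gap between the highest Nnmt LKO and the lowest control value of Aars was narrow, and its log2 fold change was -0.22 (SE 0.11, unadjusted p = 0.0739). Tars had 61.75, 72.3, 69.1 and 74.9 CPM in Nnmt LKO libraries a to d and 76.8, 78.8, 76.2 and 88.3 CPM in control libraries a to d. Its groups were likewise separate by a narrow gap, with a log2 fold change of -0.20 (SE 0.10, unadjusted p = 0.0737).

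The other 14 cytosolic genes overlapped between genotypes and had unadjusted p-values of 0.0997 or more. Gars (glycine), the other dual enzyme gene, had a log2 fold change of -0.19. Mars1 (methionine), Nars (asparagine), Wars (tryptophan), Iars (isoleucine), Hars (histidine), Qars (glutamine) and Vars (valine) had values between -0.15 and -0.11. The values were -0.09 and -0.08 for Farsa and Farsb, whose products form the subunits of the phenylalanine enzyme. Eprs, whose product charges the tRNAs of both glutamate and proline, was at -0.08. The smallest values were those of Rars (arginine) and Dars (aspartate), both -0.05, and Lars (leucine), -0.04. For Dars the 95% confidence interval of the log2 fold change ran from -0.34 to 0.24, so at this replication a decline as large as that of Kars could not be told from no change. Lars had 32.8, 30.2, 31.3 and 33.9 CPM in Nnmt LKO libraries a to d and 33.5, 30.1, 35.7 and 32.1 CPM in control libraries a to d. These ranges nearly coincided, and the sign of Dars, Lars and Rars turned in some of the alternative fits.

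**Figure D3:**
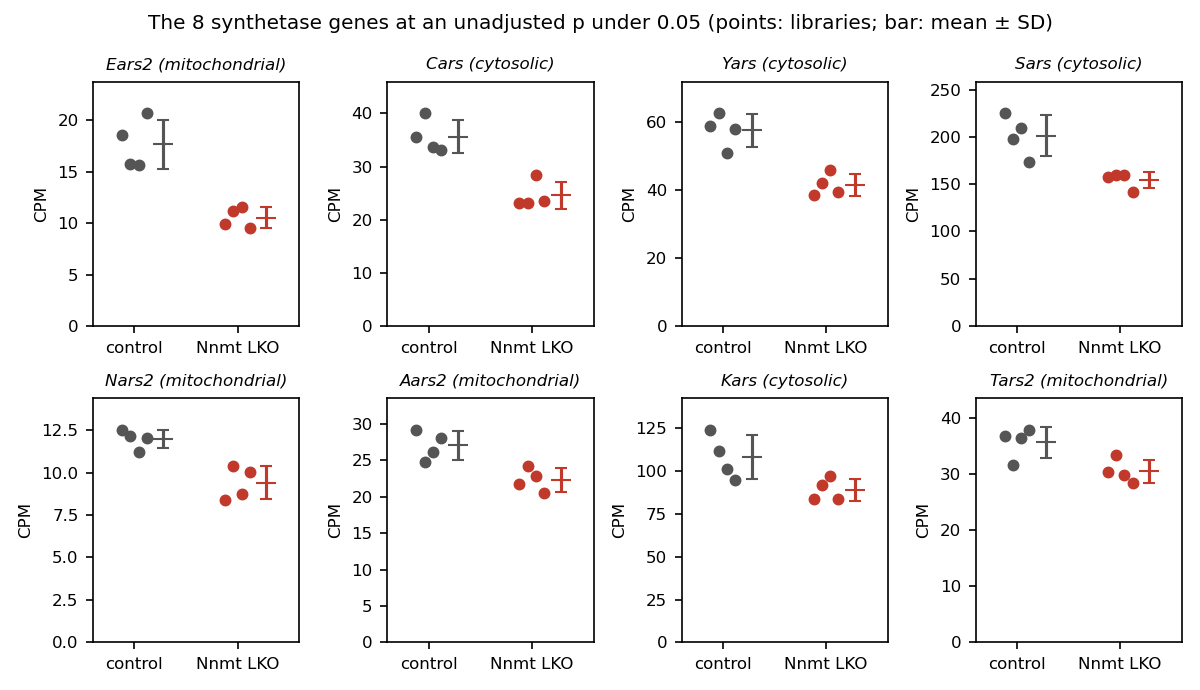
CPM per library (y axes, TMM-scaled, each from 0) of the 8 synthetase genes with an unadjusted p under 0.05 by edgeR's test, in order of p. Points are libraries a to d from left to right in control (grey) and Nnmt LKO (red) livers, and the bar is the mean ± SD of 4. The points of the genotypes are separate in Ears2, Cars, Yars, Sars, Nars2 and Aars2 and overlap in Kars and Tars2.

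The cytosolic genes were also grouped by what their products are known for, and each count is to be read beside the 7.13% of all tested genes that were lower and the 4.81% that were separate and lower. The 8 genes of the multisynthetase complex (Dars, Eprs, Iars, Kars, Lars, Mars1, Qars and Rars) had a median log2 fold change of -0.10, with 1 gene lower at the unadjusted threshold and none with separate libraries. The 12 genes outside the complex had a median of -0.17, with 3 lower and 5 separate. Of the cytosolic genes, 13 are widely described as ATF4 targets. Their median was -0.15, with 3 lower (Cars, Sars and Yars) and 5 separate, whereas the other 7 had a median of -0.09, with 1 lower (Kars) and none separate. Cars, counted among the described targets and outside the complex, lies on chromosome 7 beyond 75 Mb, where 37.4% of genes were lower. The 5 genes with the response element in their window had a median of -0.20, with 1 lower (Yars) and 3 separate (Aars, Tars and Yars). The 8 cytosolic genes of the promoter table without the element had a median of -0.11, with 2 lower (Kars and Sars) and 1 separate (Sars). Without Nnmt LKO a no gene of the complex and none of the 7 genes not described as ATF4 targets was lower. Outside the complex 3 genes, all described as ATF4 targets, still were, beside 7.42% of all tested genes. Libraries were then separate in 6 genes outside the complex and in 6 described as ATF4 targets, beside 7.43% of all tested genes. Gars, which carries the element, was the gene added. These groups are small and share members, and no test of a difference between them was made.

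In the mitochondrial class 15 of 16 fold changes were negative, with a median of -0.16. That median moved to -0.09 without Nnmt LKO a and likewise without control a, and to -0.22 without Nnmt LKO d. Ears2, the mitochondrial glutamyl-tRNA synthetase gene, had the largest fold change of all 36. It had 9.93, 11.1, 11.6 and 9.50 CPM in Nnmt LKO libraries a to d and 18.6, 15.7, 15.7 and 20.7 CPM in control libraries a to d. Every control library thus exceeded the highest Nnmt LKO library, whose group mean was 59.7% of that in controls. The log2 fold change of Ears2 was -0.74 (SE 0.13, unadjusted p = 0.00013, adjusted p = 0.0496 by edgeR's test). The adjusted p of Ears2 ran from 9.25e-05 with DESeq2 to 0.216 without control library a, and was 0.0512 with DESeq2's size factors in edgeR and 0.142 with library totals alone.

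Nars2, the mitochondrial asparaginyl-tRNA synthetase gene, had 8.38, 10.4, 8.77 and 10.04 CPM in Nnmt LKO libraries a to d. In control libraries a to d it had 12.5, 12.2, 11.2 and 12.04 CPM, all above the Nnmt LKO values. On the log2 scale Nars2 differed by -0.35 (SE 0.12, unadjusted p = 0.0136, adjusted p = 0.25 by edgeR's test).

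Aars2, the mitochondrial alanyl-tRNA synthetase gene, had 21.7, 24.2, 22.8 and 20.5 CPM in Nnmt LKO libraries a to d. In control libraries a to d it had 29.2, 24.7, 26.1 and 28.1 CPM, which lay above the Nnmt LKO values by a narrow gap. Aars2 thus had a log2 fold change of -0.28 (SE 0.10, unadjusted p = 0.0196, adjusted p = 0.284).

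Tars2, the mitochondrial threonyl-tRNA synthetase gene, had 30.4, 33.3, 29.8 and 28.3 CPM in Nnmt LKO libraries a to d. In control libraries a to d it had 36.7, 31.6, 36.4 and 37.8 CPM. Control library b lay below Nnmt LKO library b, so the genotypes overlapped. Tars2 had a log2 fold change of -0.23 (SE 0.10, unadjusted p = 0.045, adjusted p = 0.384), and the unadjusted p stayed under 0.05 in 2 of the 8 fits that left out 1 library. With library totals alone, of the 4 mitochondrial genes only Ears2 stayed under the unadjusted threshold.

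The other mitochondrial genes overlapped between genotypes and did not reach the unadjusted threshold. Wars2 (tryptophan) came nearest, with a log2 fold change of -0.29 (SE 0.14, unadjusted p = 0.0572). The values were -0.23 for Sars2, -0.20 for Mars2, -0.17 for Cars2, -0.15 for Yars2, -0.14 for Rars2, -0.12 for Vars2, -0.10 for Hars2 and Fars2, and -0.05 for Iars2. With 1 library left out, Sars2 ran from -0.29 to -0.10, Cars2 from -0.27 to -0.07 and Yars2 from -0.27 to -0.06. Pars2, for mitochondrial prolyl-tRNA synthetase, was nearest to 0 at -0.03 and turned positive in 4 alternative fits. It was also the second lowest per length, with 2.30, 2.55, 2.57 and 2.64 CPM in Nnmt LKO libraries a to d and 2.57, 2.81, 2.04 and 2.84 CPM in control libraries a to d. The values of Pars2 overlapped almost wholly.

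Lars2, the mitochondrial leucyl-tRNA synthetase gene, was the only one of the 36 with a positive fold change. It had 59.8, 113.9, 102.3 and 110.5 CPM in Nnmt LKO libraries a to d and 97.8, 107.2, 62.9 and 79.1 CPM in control libraries a to d. Both genotypes held high and low libraries. The log2 fold change of 0.16 (SE 0.21, unadjusted p = 0.485, 95% confidence interval from -0.32 to 0.63) was smaller than its error. With 1 library left out it ran from 0.03 (without control c) to 0.33 (without Nnmt LKO a). The libraries lowest in Lars2, Nnmt LKO a and control c, were also the lowest of their genotype in the summed hepatocyte markers. Those sums were 62010, 96790, 110800 and 107700 CPM in Nnmt LKO libraries a to d and 97710, 111500, 73070 and 87400 CPM in control libraries a to d. The part of hepatocyte content in the level of Lars2 was not tested.

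Levels were compared between genes per length, as mean CPM of the 8 libraries per kilobase of exon. The cytosolic genes had a median level of 18.7 CPM per kb, from 8.15 in Lars and 9.34 in Cars to 48.9 in Sars and 56.6 in Aars. The mitochondrial genes had a median level of 5.71 CPM per kb. Their highest level per length was that of Lars2 (23.5 CPM per kb), followed by Fars2 (13.3 CPM per kb), and the lowest were those of Pars2 (0.833 CPM per kb) and Mars2 (0.362 CPM per kb). Fars2, for mitochondrial phenylalanyl-tRNA synthetase, had 27.8, 31.4, 32.4 and 28.8 CPM in Nnmt LKO libraries a to d and 33.2, 35.8, 29.7 and 30.1 CPM in control libraries a to d. Mars2, for mitochondrial methionyl-tRNA synthetase, had 3.38, 3.43, 4.07 and 4.37 CPM in Nnmt LKO libraries a to d and 3.92, 4.71, 4.84 and 4.02 CPM in control libraries a to d. In both genes the genotypes overlapped. The level of Mars2 per length rests on an annotated exon length of 11294 bases.

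Among the 36, 13 cytosolic genes have a mitochondrial partner of the same letter for the same amino acid. Eprs beside Ears2 and Pars2, and Farsa and Farsb beside Fars2, are also made for shared amino acids but were not paired, as they do not match gene for gene. Their log2 fold changes were -0.08 in Eprs against -0.74 in Ears2 and -0.03 in Pars2, and -0.09 and -0.08 in Farsa and Farsb against -0.10 in Fars2. Per length, the cytosolic gene was the more abundant in 12 of the 13 pairs, and the median ratio of levels was 4.97. The ratio was largest for methionine (Mars1 over Mars2, 46.8) and next largest for asparagine (Nars over Nars2, 18.9). Leucine was the exception, as Lars had 0.346 times the level of Lars2. The fold changes of the partners did not share an order. The cytosolic gene had the lower fold change in 6 pairs, such as cysteine (-0.53 in Cars, -0.17 in Cars2) and tyrosine (-0.48 in Yars, -0.15 in Yars2). The mitochondrial gene had it in 7, such as asparagine (-0.15 in Nars, -0.35 in Nars2) and tryptophan (-0.14 in Wars, -0.29 in Wars2).

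**Figure D4:**
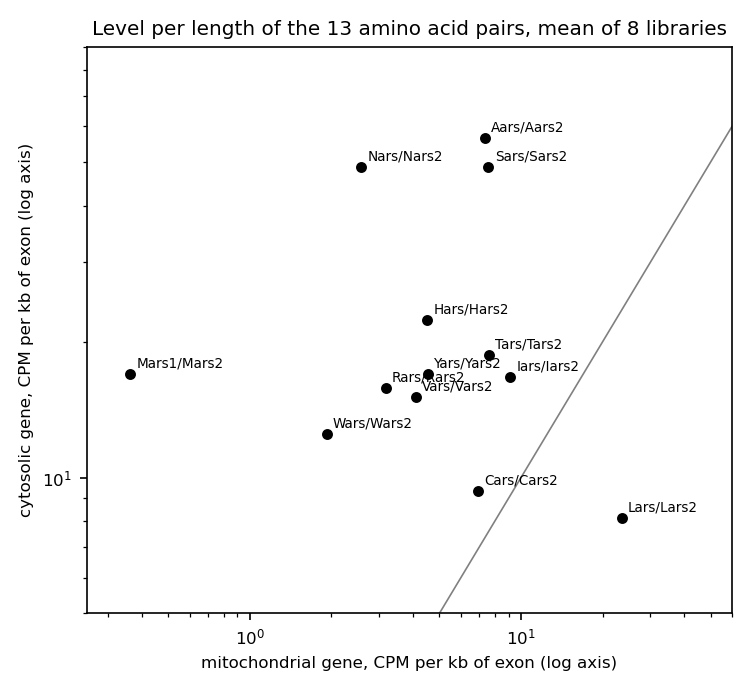
Level per length of the cytosolic gene (y axis) against that of the mitochondrial gene (x axis) for 13 amino acids, as mean CPM of 8 libraries per kb of exon, on log axes. Each point is 1 amino acid and the line marks equal levels. All pairs but Lars/Lars2 lie above the line, with Mars1/Mars2 furthest from it.

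The genes also fall into the structural classes I and II by the fold of their catalytic domain, with Eprs holding a domain of each. Of log2 fold changes, the median was -0.14 over the 18 class I genes, with 3 lower at the unadjusted threshold (Cars, Yars and Ears2). It was -0.19 over the 17 class II genes, with 5 lower (Kars, Sars, Aars2, Nars2 and Tars2), beside 7.13% of all tested genes lower. Each class had 3 lower without Nnmt LKO a, beside 7.42% of all tested genes. Lars2 was the only positive value in either class.

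Of the genes with separate libraries, 3 lie on chromosome 7 (GRCm38), where many genes were lower in Nnmt LKO livers. Cars lies at 143557230 to 143600090 on the minus strand, Ears2 at 122037213 to 122067263 on the minus strand and Nars2 at 96951505 to 97064758 on the plus strand. Over the whole chromosome 1154 tested genes had a median of -0.14, and 22.8% were lower at the unadjusted threshold. The chromosome was divided at 75 Mb with earlier results of these data known. Beyond 75 Mb, 554 tested genes had a median of -0.28 on the log2 scale, and 37.4% were lower at the unadjusted threshold. On the other autosomes the median was 0.02 and 5.98% were lower. These shares were 36.4% and 6.36% without Nnmt LKO a. Within that stretch of 553 other genes, 4.16% had a lower fold change than Ears2, 14.3% a lower one than Cars and 37.8% a lower one than Nars2. Nars2 was thus well inside the range of its chromosomal stretch, and Ears2 near its edge. Within 1 Mb of Ears2, 4 of 13 tested neighbours were lower and none higher at the unadjusted threshold, with a median of -0.19. Within 1 Mb of Cars, 6 of 24 neighbours were lower and 3 higher, with a median of -0.30, and near Nars2 5 of 15 were lower, with a median of -0.18. Sars2 lies nearer the start of the chromosome, at 28741992 to 28753871, in a stretch up to 75 Mb whose 600 genes had a median of -0.05, with 9.33% lower. What sets chromosome 7 apart was not tested.

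On other chromosomes the 32 synthetase genes had a median of -0.14, with 31 negative. Of these 5 (15.6%) were lower at the unadjusted threshold, which were Yars, Sars, Kars, Aars2 and Tars2, and 5 had separate libraries, which were Yars, Sars, Aars, Tars and Aars2. On the other autosomes as a whole 5.98% of genes were lower, and over all tested genes 4.81% were separate and lower. Without Nnmt LKO a, 3 of the 32 (9.38%) were lower and 6 (18.8%) had separate libraries, beside 6.36% and 6.63% of the genes of the other autosomes. None of the 32 passed the adjusted threshold. Yars had a lower fold change than all but 7.49% of the other genes of chromosome 4, and Sars than all but 6.43% of those of chromosome 3. Their neighbours within 1 Mb had medians of 0.01 around both genes. For Kars, Aars2 and Tars2, 13.8%, 13.3% and 14.6% of the other genes of their chromosomes had a lower fold change. The medians of their neighbours were -0.07, -0.11 and -0.06.

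**Figure D5:**
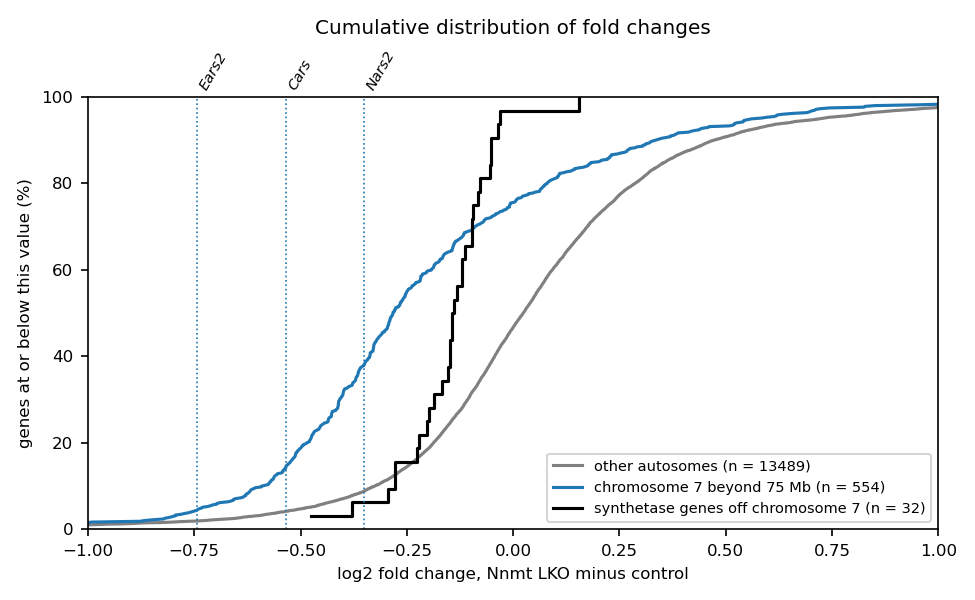
Cumulative share of genes (y axis, %) with a log2 fold change at or below the value on the x axis (Nnmt LKO minus control), for genes of the other autosomes (grey), genes of chromosome 7 beyond 75 Mb (blue) and the 32 synthetase genes off chromosome 7 (black). Dotted lines mark Ears2, Cars and Nars2. The black curve is steep, with a median of -0.14 between those of the grey (0.02) and blue (-0.28) curves.

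Aars shares 1326 exon bases with Exosc6 on the same strand, where strand cannot tell reads apart. The deposited counts hold no values for Exosc6, so its share in the counts of Aars could not be examined. The other overlaps that share exon bases lie on opposite strands, and the use of strand in the counting is not given in the sources used here. Hars and Hars2 share 195 exon bases, Iars2 shares 2034 with Rab3gap2, and Mars1 shares 68 with Ddit3, itself an ISR gene. Vars2 shares 296 exon bases with Gm20483 (0 counts in every library) and Farsb 248 with Sgpp2 (mean of 88 counts per library). Fars2 shares 115 with Lyrm4 (mean 369), Ears2 89 with Ubfd1 (mean 3827) and Yars 30 with C77080 (mean 10793). Iars2 also shares 114 with 2010103J01Rik, for which the deposited counts hold no values. The values of these synthetase genes are uncertain to that extent.

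Other genes of tRNA charging were listed beside the synthetases, from complex scaffolds (Aimp1, Aimp2) to the elongation factors that receive the charged tRNA (Eef1a1, Tufm). Of the 14, 12 had a negative fold change, 2 were lower at the unadjusted threshold and none was higher, with a median of -0.12, beside 47.7% negative and 7.13% lower among all tested genes. With Nnmt LKO a left out, 10 were negative and 2 lower, beside 7784 of 15477 tested genes negative and 7.42% lower. The lower genes were Tufm, the mitochondrial elongation factor, with 102, 137, 133 and 127 CPM in Nnmt LKO libraries a to d and 181, 180, 165 and 153 CPM in control libraries a to d. The log2 fold change of Tufm was -0.44 (SE 0.12, unadjusted p = 0.00387, adjusted p = 0.15). The other was Pstk, a kinase needed to make selenocysteinyl-tRNA, with 2.63, 3.75, 2.68 and 3.61 CPM in Nnmt LKO libraries a to d and 4.79, 4.69, 5.54 and 4.44 CPM in control libraries a to d. Its log2 fold change was -0.62 (SE 0.18, unadjusted p = 0.00545, adjusted p = 0.176). The libraries of both genes were separate, and both genes lie on chromosome 7 beyond 75 Mb, where 37.4% of genes were lower.

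ATF4 and 26 of its described targets outside the synthetases were described in the same way. Of these 27 genes, 13 were lower and 1, Vldlr, was higher at the unadjusted threshold, beside 7.13% lower and 5.45% higher among all tested genes. With Nnmt LKO a left out, 16 were lower and 1 higher, beside 7.42% and 5.84% of all tested genes. Over all libraries the median log2 fold change of the 27 was -0.41, beside -0.15 for the 13 synthetase genes described as ATF4 targets. Trib3, which encodes a pseudokinase induced in the ISR, was the only one past the adjusted threshold. It had 31.0, 35.97, 34.75 and 19.1 CPM in Nnmt LKO libraries a to d and 80.9, 74.05, 85.5 and 72.1 CPM in control libraries a to d. The log2 fold change of Trib3 was -1.37 (SE 0.18, adjusted p = 0.0188), the groups being far apart. Atf4 itself had 68.3, 80.0, 85.2 and 79.9 CPM in Nnmt LKO libraries a to d and 123, 121.5, 113 and 103 CPM in control libraries a to d, without overlap. Its log2 fold change was -0.56 (SE 0.11, unadjusted p = 0.000344), close to those of Cars and Yars. Nupr1, a stress-response regulator, had a log2 fold change of -1.75 (SE 0.36, unadjusted p = 0.000527). Nupr1 lies on chromosome 7 beyond 75 Mb, and Atf5 and Fgf21, also among the 13 lower genes, lie on that chromosome before 75 Mb. The ATF4 targets listed here were chosen with earlier results of these mice known, and no test of the difference between the lists was made.

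Wars is also a gene that interferons induce. It had a log2 fold change of -0.14 (SE 0.09, unadjusted p = 0.151), with 35.3, 37.0, 32.6 and 31.6 CPM in Nnmt LKO libraries a to d and 39.7, 37.4, 36.2 and 37.4 CPM in control libraries a to d. Of 10 interferon-stimulated genes, Cxcl10 was lower (-0.57, unadjusted p = 0.0394) and Gbp2 higher (0.43, unadjusted p = 0.0262), and the median was 0.09. Among all tested genes 7.13% were lower and 5.45% higher. Without Nnmt LKO a, 2 were lower and none higher, with a median of -0.11, beside 7.42% and 5.84% of all tested genes. Wars thus had a small fold change beside a list whose median changed sign with that library.

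The defining markers of hepatocytes were present in all libraries, with Alb at 48510 to 89490 CPM, and none of the 6 passed the unadjusted threshold. Markers of other cell types were compared, since the synthetases are made in all cells, and 5.45% of all tested genes were higher and 3.34% separate and higher. Of 6 markers of stellate cells or fibroblasts, Lrat, Reln and Dcn were higher at the unadjusted threshold, and Dcn was the most abundant of the 6. Their sums were 781, 464, 430 and 477 CPM in Nnmt LKO libraries a to d and 326, 338, 491 and 492 CPM in control libraries a to d, which overlapped. Of 5 cholangiocyte markers 1, Epcam, was higher, and the sums, in which Spp1 was the most abundant gene, were 278.5, 100.6, 88.8 and 177 CPM in Nnmt LKO libraries a to d and 49.9, 61.5, 167 and 89.3 CPM in control libraries a to d. Of 5 lymphocyte markers 1, Cd8a, was higher, and the sums were low, at 3.79, 4.05, 2.93 and 3.68 CPM in Nnmt LKO libraries a to d and 2.33, 2.06, 2.30 and 2.45 CPM in control libraries a to d. These sums did not overlap, all 5 fold changes were positive, and the libraries of Cd8a and Cd79a were separate. Ms4a1, the B cell marker of that list, had 0 counts in control library d. No marker of Kupffer cells or macrophages (6), endothelial cells (5) or neutrophils (3) passed the unadjusted threshold. Without Nnmt LKO a, 5.84% of all tested genes were higher. No marker of stellate cells or cholangiocytes then was, against 1 of lymphocytes and 2 of the 6 hepatocyte markers. The part of these cells in the synthetase values was not tested.

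The spread between mice set what could be seen. The coefficient of variation among libraries of a genotype had a median of 8.52% in control and 8.02% in Nnmt LKO livers over the cytosolic genes, and of 10.9% and 9.40% over the mitochondrial genes. Standard errors of the log2 fold changes had a median of 0.11 in the cytosolic and 0.13 in the mitochondrial class.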

How the data were processed

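Liver RNA of 4 Nnmt LKO and 4 control mice was sequenced. The authors deposited whole-number counts per gene, not normalized, for 33212 genes. The labels name HISAT2, StringTie and mm10, and no versions, annotation or strand setting are given in the sources used here. The labels name a NEBNext Ultra library kit and the paper's methods KAPA HyperPrep. Nothing says when the libraries were prepared, so batches could not be examined. Same-genotype libraries differed far beyond counting noise (chi-square per degree of freedom 42.2 to 263), and each was used as 1 replicate, so that p-values measure the spread between these libraries.

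Genes were filtered by filterByExpr (minimum count 10), scaled by TMM and tested by the quasi-likelihood test of edgeR 4.0.16 in R 4.3.3, with Benjamini-Hochberg adjustment over 15291 genes. The standard error is the one implied by the F statistic. DESeq2 1.42.0, DESeq2's size factors, library totals alone, no filter and each library left out in turn were alternatives, and leaving out Lars2 or the chromosome 7 genes from class counts, or Nnmt LKO a from the list counts, was added after the data were seen. Tests were tried on simulated data first. GENCODE M21 (GRCm38) gave positions and exon lengths for 15146 tested genes (99.1%). Members and gene lists were chosen with earlier results of these data known. Values per library are given for Nnmt, for synthetase genes with an unadjusted p under 0.05, for the 2 of each class with the smallest p in each direction, and for the 2 highest and 2 lowest per length. From other lists, genes with an adjusted p under 0.05 and at most 3 of smallest p are named. Aars, Tars, Wars, the other markers and overlapping genes were named after their values were seen. Some items are not reported here.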

Additional observations from a re-analysis of the deposited data

Results flagged for a closer look

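In 76 groups of 4 libraries, the highest or lowest library was set against the others by Dixon's criterion, which chance passes in about 1 of 20 groups, and 3 groups passed it. Cars had 28.4 CPM in Nnmt LKO library c, above the 23.1 to 23.6 CPM of the other Nnmt LKO libraries and still below every control library. Sars had 142 CPM in Nnmt LKO library d, below the 158 to 160 CPM of the other Nnmt LKO libraries. The TMM factor was 1.21 in Nnmt LKO library a, against 0.952 to 0.977 in the other Nnmt LKO libraries. Without the library in question, the log2 fold change of Cars was -0.61, and with any 1 library left out edgeR's test still put Cars and Sars under the unadjusted threshold of 0.05.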

How the results depend on the processing

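With library totals alone, DESeq2's size factors, DESeq2's test and no filter, the genes past the adjusted threshold numbered 22, 30, 513 and 8 (49 as reported), and 6 to 149 with 1 library left out, the highest without Nnmt LKO a. The synthetase genes past it numbered 0, 0, 4 (Cars, Sars, Yars and Ears2) and 0, and 0 to 1 with 1 library left out. Genes lower at the unadjusted threshold numbered 1091, against 834 higher, 620 against 818 with library totals alone, and 618 (without control a) to 1180 with 1 library left out. Mitochondrial genes lower numbered 4 as reported, 1 with library totals alone, 2 without the genes on chromosome 7, and 2 (without control a) to 5 with 1 library left out. The cytosolic median of -0.14 was -0.083 with library totals alone, a scaling that put the median of all genes at 0.07, and -0.16 to -0.10 with 1 library left out. The mitochondrial median of -0.16 ran from -0.22 to -0.09 with 1 library left out. The fold change turned positive with library totals alone for Lars (0.017) and Pars2 (0.024). With 1 library left out it turned for Dars (-0.16 to 0.033, the latter without Nnmt LKO a), Lars (-0.064 to 0.0063, the latter without control c), Rars (-0.13 to 0.038, with 0.017 without Nnmt LKO b, 0.038 without control c) and Pars2 (-0.13 to 0.027, with 0.011 without Nnmt LKO a, 0.027 without control b, 0.023 without control d). The causes were not tested. Over the alternatives, 33 to 35 of the 36 fold changes stayed negative. No paired analysis was possible because the columns of the count table carry no mouse number. The spread between 4 mice per genotype limits these values, and for genes of few counts, such as Pars2, counting error limits them too.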
